A study of Mus musculus with 4 samples.

Results

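The vacuolar proton pump (V-ATPase) has a cytosolic sector, V1, that splits ATP, and a membrane sector, V0, that carries protons. The 10 mouse genes described here encode V1 subunits: Atp6v1a, Atp6v1b1, Atp6v1b2, Atp6v1c1, Atp6v1c2, Atp6v1d, Atp6v1e1, Atp6v1f, Atp6v1g1 and Atp6v1h. They were chosen by name, through the accession of each array probe and its RefSeq symbol. They are 10 of 16358 symbols on the array and 10 of 16120 genes that could be tested, and none was lost to the filter on dim probes. The knockout cells came from HoxB7CreEGFP+; PRR flox/flox mice, in which Cre recombinase removes floxed parts of Atp6ap2, the gene of the (pro)renin receptor (PRR). The wild-type cells came from CreEGFP+ PRR+/+ mice, so both genotypes carried the Cre and EGFP transgene. The HoxB7 promoter is active in the ureteric bud, the epithelial tree from which collecting ducts form, and cells outside that lineage keep the gene. Green cells were sorted by flow cytometry at postnatal day 1 and pooled, and 0.5 µg of total RNA entered each labelling reaction.

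On the 2 arrays called KO_vs_WT, Cy5 marked the knockout RNA and Cy3 the RNA of wild-type pool 1 (replicate 1) or pool 2 (replicate 2). On the 2 arrays called WT_self, the RNA of a single wild-type pool was in both dyes, pool 1 on replicate 1 and pool 2 on replicate 2. Knockout RNA was in Cy5 on every array that held it, with no swapped array analysed here. The labels conflict: the sample titles call the KO_vs_WT arrays wild type and the self arrays knockout, and the pool numbers of the self arrays are exchanged in their descriptions. Groups follow the source named for each channel, and if the titles held, all directions between the genotypes would turn. The Cy3 profile of KO_vs_WT replicate 2, with pool 2 as its source, correlated across genes at r = 0.996 with Cy3 of WT_self replicate 2 and at 0.95 with that of replicate 1. Knockout pools have no number in the labels.

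In the pump, A and B subunits alternate in the catalytic head, where A binds and splits ATP. D and F form the central rotor, E and G form the peripheral stalks, and C and H sit at the join with V0, where the pump is taken apart and put together to switch it. Most subunits have a form found in all cells. Atp6v1b1 encodes the B form of intercalated cells, the acid- or base-secreting cells of the collecting duct, and Atp6v1c2 encodes a C form found in kidney and lung. Loss of human ATP6V1B1 causes distal renal tubular acidosis. The product of Atp6ap2 is also an accessory protein of the pump. Pumps are present in the proximal tubule as well, where they add to acid secretion.

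Promoters are shown for the 2 isoforms of intercalated cell or kidney, Atp6v1b1 and Atp6v1c2, and for Atp6v1a, the ubiquitous catalytic subunit. Each spans 250 bases before to 50 bases after the RefSeq start of the gene (build GRCm38.p6), written 5′ to 3′ on the gene's strand. Capitals mark a match to the E-box CACGTG, the core site of the Tfeb, Tfe3 and Mitf family, or to the forkhead sequence TGTTTAC, the kind of site bound by Foxi1, which directs pump genes in mouse intercalated cells. Both strands were searched, and no 2 matches overlapped.
Atp6v1b1, chr6:83742767-83743066, plus strand: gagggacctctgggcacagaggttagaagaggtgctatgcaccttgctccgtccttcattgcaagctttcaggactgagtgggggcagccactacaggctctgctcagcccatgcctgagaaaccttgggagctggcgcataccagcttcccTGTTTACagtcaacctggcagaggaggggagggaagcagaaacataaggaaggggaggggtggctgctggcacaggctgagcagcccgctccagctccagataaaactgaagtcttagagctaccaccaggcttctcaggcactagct
Atp6v1c2, chr12:17324681-17324980, minus strand: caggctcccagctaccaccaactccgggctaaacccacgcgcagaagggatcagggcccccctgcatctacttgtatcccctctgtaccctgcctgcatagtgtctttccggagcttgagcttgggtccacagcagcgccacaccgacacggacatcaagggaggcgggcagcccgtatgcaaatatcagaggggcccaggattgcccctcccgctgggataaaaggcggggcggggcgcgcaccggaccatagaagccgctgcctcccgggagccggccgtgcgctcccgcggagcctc
Atp6v1a, chr16:44139210-44139509, minus strand: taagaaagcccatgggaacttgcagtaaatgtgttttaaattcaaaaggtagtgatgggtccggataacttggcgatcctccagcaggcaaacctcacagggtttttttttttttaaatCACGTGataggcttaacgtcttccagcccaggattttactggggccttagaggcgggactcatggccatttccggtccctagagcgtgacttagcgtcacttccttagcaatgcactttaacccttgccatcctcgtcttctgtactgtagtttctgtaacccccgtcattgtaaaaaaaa

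The Atp6v1b1 promoter held 1 forkhead match, its first base at -98 from the start, no E-box match and 3 CpG dinucleotides. The Atp6v1c2 promoter held neither match and 22 CpG. The Atp6v1a promoter held 1 E-box match at -131, no forkhead match and 10 CpG. Over all 32851 mouse promoters of the same length, 7.15% held the E-box, 3.65% held the forkhead sequence and the median was 7 CpG. Promoters of Atp6v1d, Atp6v1e1 and Atp6v1f held neither sequence and had 21, 16 and 17 CpG, so Atp6v1a does not stand for all ubiquitous members. Among the 6 members with a promoter entry, that of Atp6v1b1 alone had fewer CpG than the median. Atp6v1b2, Atp6v1c1, Atp6v1g1 and Atp6v1h had no entry. A match describes these letters and was not tested as a binding site.

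All 15 member probes were well above background in Cy5 on all 4 arrays, and none was saturated or lay in the dark patch of WT_self replicate 1. Cy3 of KO_vs_WT replicate 1 was almost empty, with 28 of 41174 probes well above background, none of them a member probe, against 14936 to 22713 in the other 7 channels. Knockout and wild type were therefore compared first in Cy5, across arrays. The median background-subtracted signal of spike-in transcripts, which are added at labelling, was 5.6 to 57.6 in the 3 channels that carried pool 2 and of 893 to 4610 in the other 4 channels with signal. Principal cell markers were measured for 12 of 12 genes and intercalated cell markers for 19 of 21. Aqp2, the water channel of principal cells, stood at 12.33 and 12.57 in knockout cells and at 11.93 and 11.50 in wild-type pools 1 and 2. Foxi1 stood at 7.15 and 6.91 in knockout cells and at 7.06 and 7.11 in pools 1 and 2. Levels are log2 Cy5 intensities after background correction and quantile normalization, and a level of 1 probe is not comparable with that of another.

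No V1 gene passed the test of knockout against wild type. The widest gaps were between knockout and pool 2, for Atp6v1b1, Atp6v1g1 and Atp6v1c2. By the brighter or sole probe of each gene, Atp6v1b1 was over 2-fold brighter in pool 2 than in pool 1, and Atp6v1c2 was dimmer. Atp6v1g1, Atp6v1f, Atp6v1b2, Atp6v1c1 and Atp6v1a were brighter in pool 2 by 0.34 to 0.73 on the log2 scale. The dimmer probe of Atp6v1g1 gave 1.26, more than the 1.19 of Atp6v1b1. That of Atp6v1f gave 0.74 and that of Atp6v1a gave -0.01. In Cy5, 0 of 10 members passed at an adjusted p under 0.05 (limma, Benjamini-Hochberg over 16120 genes), where the share of all genes was 0% and the lowest adjusted p was 0.707. At an unadjusted p under 0.05, 511 of all genes were higher and 192 lower in knockout. The median difference, knockout minus wild type, was -0.07 over the 10 members, and 0.02 over all genes, with 5 of 10 members negative beside 44.8% of all genes. With 2 arrays in each group, a permutation test could not go below p = 0.333. Nothing in the labels says whether pools came from separate animals, so p-values cover no more than the spread of these 4 arrays, and that spread may be technical.

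**Figure D1:**
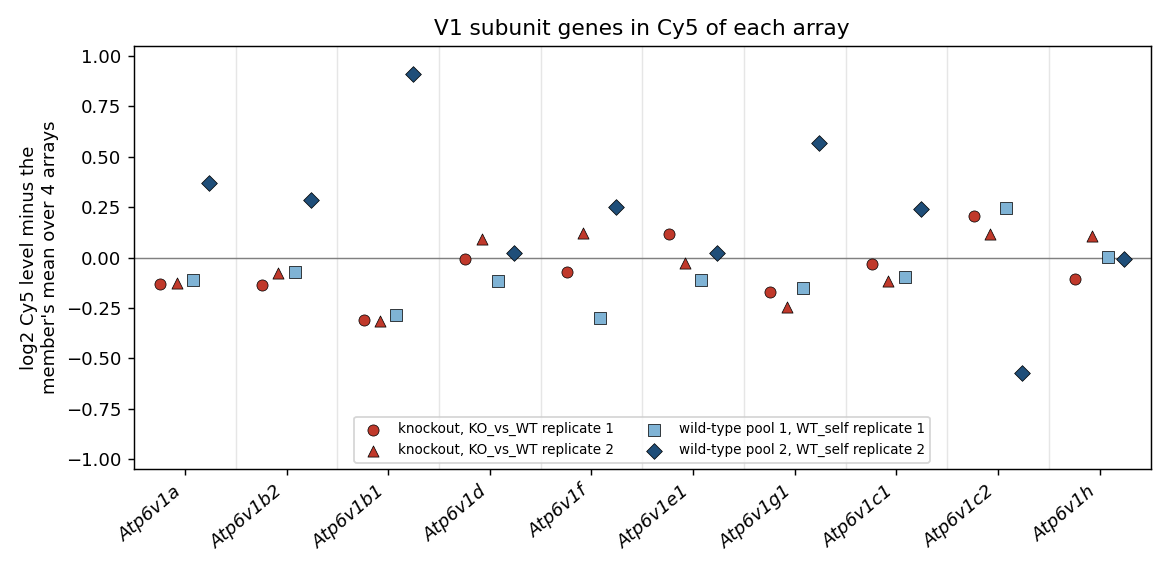
Log2 Cy5 level of each V1 gene on each of the 4 arrays, minus the gene's mean over the 4 arrays, with genes ordered by role from the catalytic head to the regulatory subunits. Red marks are the 2 knockout arrays, the light square is wild-type pool 1 and the dark diamond is pool 2, which lies apart from the other 3 marks for Atp6v1b1 (8.18 against 6.96 to 6.99), Atp6v1g1 and Atp6v1c2.

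In the catalytic head, Atp6v1a stood at 8.27 and 8.28 in knockout cells and at 8.29 and 8.77 in wild-type pools 1 and 2. The knockout values and pool 1 lay within 0.02 of each other, with pool 2 above them. Knockout minus wild type was -0.26 ± 0.19 (moderated SE, 2 arrays per group, limma adjusted p = 0.796). In a moderated SE, limma shrinks the spread of a gene over its arrays toward that of all genes. Atp6v1b2, the B form of most cells, had 6.59 and 6.65 in knockout cells and 6.65 and 7.01 in pools 1 and 2, a difference of -0.21 ± 0.16 (adjusted p = 0.796). Its order was the same, with pool 2 alone above the rest. The dimmer probe of Atp6v1a gave another order, with 8.12 and 8.11 in knockout cells and 8.29 and 8.28 in pools 1 and 2.

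Atp6v1b1, the intercalated cell form, stood at 6.96 on both knockout arrays and at 6.99 and 8.18 in wild-type pools 1 and 2. Knockout values lay 0.03 below pool 1 and 1.22 below pool 2, or at 0.978 and 0.429 of their levels. The difference from the mean of both pools was -0.63 ± 0.40 (moderated SE, 2 arrays per group, limma adjusted p = 0.796). Its 95% interval ran from -1.67 to 0.42. The 2 pools differed by 1.19, a 2.28-fold difference that 2.74% of all genes reached in either direction. Both B genes were dim: the Cy5 signal of Atp6v1b1 above local background was 92.5 and 42.5 units in knockout cells and 48.5 and 177 units in pools 1 and 2. An offset of 50 units draws such values together, and the fold between pools was 2.78 at an offset of 16. It was 2.15 with 75th percentile centring and 3.79 in the scanner software's processed signal, which differs in both background and dye correction.

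In the central rotor, Atp6v1d stood at 10.53 and 10.63 in knockout cells and at 10.42 and 10.56 in pools 1 and 2, so the groups overlapped. The difference was 0.09 ± 0.12 (moderated SE, 2 arrays per group, limma adjusted p = 0.849). Atp6v1f had 12.62 and 12.81 in knockout cells and 12.39 and 12.94 in pools 1 and 2. Here both knockout values lay between the pools, 0.33 above pool 1 and 0.22 below pool 2 on average, and the difference was 0.05 ± 0.22 (adjusted p = 0.955). Its second, dimmer probe gave 9.57 and 9.82 in knockout cells and 9.49 and 10.23 in pools 1 and 2, the same order.

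In the peripheral stalks, Atp6v1e1 stood at 8.98 and 8.84 in knockout cells and at 8.75 and 8.89 in pools 1 and 2. The groups overlapped, with a difference of 0.09 ± 0.13 (moderated SE, 2 arrays per group, limma adjusted p = 0.858). Atp6v1g1 had 11.55 and 11.48 in knockout cells and 11.57 and 12.29 in pools 1 and 2. Pool 2 lay 1.65-fold above pool 1, while the knockout mean was 0.963 of pool 1 and 0.583 of pool 2. The difference was -0.42 ± 0.26 (adjusted p = 0.796). The other Atp6v1g1 probe, at 9.95 and 10.18 in knockout cells and 10.05 and 11.30 in pools 1 and 2, again had pool 2 apart from the rest.

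Among the C and H subunits, Atp6v1c1 is the C form of all cells. It stood at 7.47 and 7.39 in knockout cells and at 7.40 and 7.75 in pools 1 and 2. The difference was -0.15 ± 0.16 (moderated SE, 2 arrays per group, limma adjusted p = 0.826). Atp6v1c2 had 8.90 and 8.82 in knockout cells and 8.94 and 8.13 in pools 1 and 2. It was the only member whose pool 2 value lay below all other 3 values by over 0.1, at 0.567 of pool 1. The knockout mean was 0.944 of pool 1 and 1.66-fold that of pool 2, and the difference from both was 0.33 ± 0.29 (adjusted p = 0.805). Atp6v1h stood at 7.60 and 7.81 in knockout cells and at 7.70 in both pools, a difference of 0.00 ± 0.13 (adjusted p = 0.996). Its second probe gave 7.54 and 7.60 in knockout cells and 7.39 and 7.29 in pools 1 and 2, so the 2 probes did not give the same order.

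Against pool 1 alone, 0 of 10 members differed by 1.5-fold or more, where 1.6% of all genes did. Against pool 2 alone, 3 of 10 did (Atp6v1b1 and Atp6v1g1 lower, Atp6v1c2 higher in knockout), where 12.4% of all genes did. Between pools, pool 2 differed from pool 1 by that much for the same 3 members, where 13.2% of all genes did. The knockout mean was nearer to pool 1 for 7 of 10 members, close to the 68.3% of all genes. The median size of the difference was 0.04 from pool 1 and 0.35 from pool 2 over the members, and 0.11 and 0.21 over all genes. The 2 knockout arrays differed by a median of 0.09 over the members and also over all genes. Both knockout values lay above both wild-type values in 0 of 10 members (22.3% of all genes) and below both in 4 of 10 (17.3%). The 4 were Atp6v1a, Atp6v1b1, Atp6v1b2 and Atp6v1g1, and there the higher knockout value lay at most 0.03 below pool 1. At the dimmer probe of Atp6v1g1, pool 1 (10.05) lay between the knockout values (9.95 and 10.18).

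Left with pool 2 as the only wild-type array, the fit called 5 of 10 members, where it called 26.4% of all genes. For each gene its spread came from the 2 knockout arrays, shrunk by limma toward the spread of all genes. The single wild-type array was assumed to vary in the same way. For Atp6v1b1 the knockout arrays had an SD of 0.0034 while the SE used was 0.096, so its interval rests mostly on other genes. In that fit Atp6v1b1 was lower in knockout by a log2 difference of -1.22 (95% interval -1.46 to -0.99, limma adjusted p = 0.000736) and Atp6v1g1 by -0.78 (adjusted p = 0.00379). Atp6v1a at -0.50 (adjusted p = 0.0147) and Atp6v1b2 at -0.39 (adjusted p = 0.0326) were lower too, and Atp6v1c2 was higher by 0.73 (adjusted p = 0.00491). With pool 1 as the only wild-type array, 0 of 10 members were called, where 0.00626% of all genes were. The 95% interval of knockout minus pool 1 was then -0.27 to 0.20 for Atp6v1b1, -0.33 to 0.16 for Atp6v1c2, -0.30 to 0.19 for Atp6v1g1 and 0.04 to 0.61 for Atp6v1f (limma adjusted p = 0.313). The 2 pools were not set against each other in a test, since each has 1 Cy5 array.

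**Figure D2:**
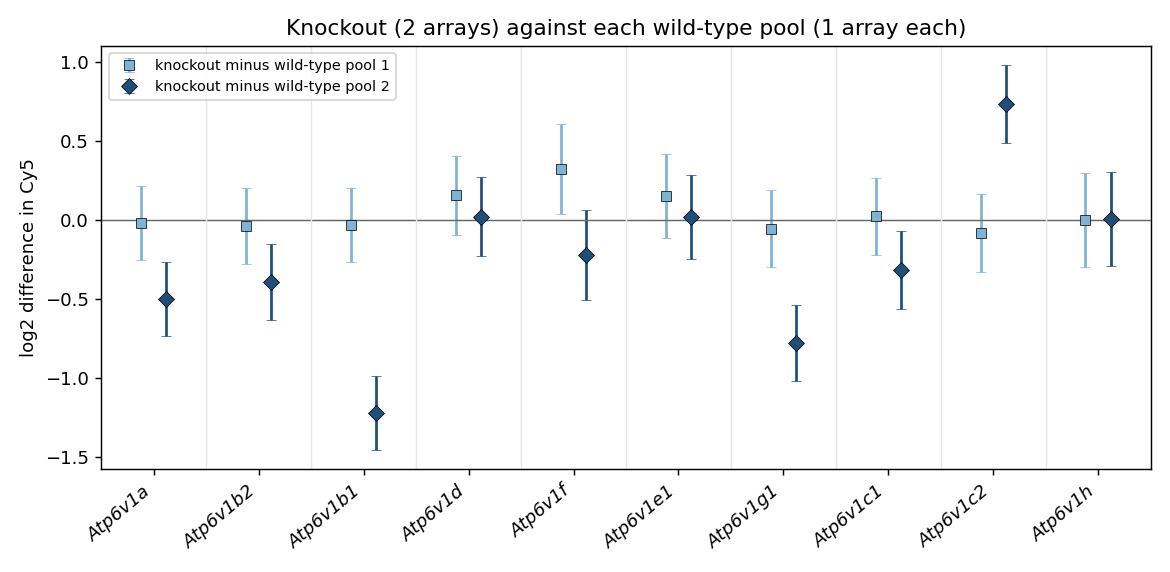
Log2 difference in Cy5 of the 2 knockout arrays from wild-type pool 1 (light squares) and from pool 2 (dark diamonds) for each V1 gene. Bars are 95% intervals from limma fits in which the spread of the 2 knockout arrays is shrunk toward that of all genes. The squares lie between -0.08 and 0.33, the diamonds between -1.22 for Atp6v1b1 and 0.73 for Atp6v1c2.

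Repeat measurements of each pool in the other dye gave the same separation for the 3 members that differed most. For this, the 7 channels with signal were normalized together. Atp6v1b1 stood at 6.80 and 6.80 in the knockout channels, at 7.77, 7.84 and 7.79 in the 3 channels of pool 2 and at 6.82 and 6.99 in the 2 channels of pool 1. Atp6v1c2 stood at 8.41 and 8.33 in the knockout channels, at 7.72, 7.76 and 7.58 in pool 2 and at 8.45 and 8.34 in pool 1. Atp6v1g1 had 10.98 and 10.91 in the knockout channels, 11.72, 11.66 and 11.40 in pool 2 and 11.00 and 10.92 in pool 1. In all 3 genes the channels of pool 2 lay apart from those of knockout and pool 1, which overlapped or nearly met. The pool 2 channels repeat 1 RNA pool in 2 dyes and on 2 arrays, and those of pool 1 repeat it in 2 dyes on 1 array. They show measurement spread and not the spread of animals.

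Of 15 member probes, 14 were well above background in all 7 channels, the exception being Atp6v1b2, which was not in Cy3 of either self array. The channels of the 2 pools did not overlap for 10 of these 14 probes, where the share over all such probes was 63.2%. Pool 2 was above pool 1 in 9 probes and below in 1, that of Atp6v1c2. The share of all probes in each direction was not counted, so this split is not read as a trait of the V1 genes. Both probes of Atp6v1g1, Atp6v1f and Atp6v1e1 had pool 2 above pool 1. The 2 probes of Atp6v1a differed: pool 2 minus pool 1 in Cy5 was 0.48 for the brighter and -0.01 for the dimmer.

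**Figure D3:**
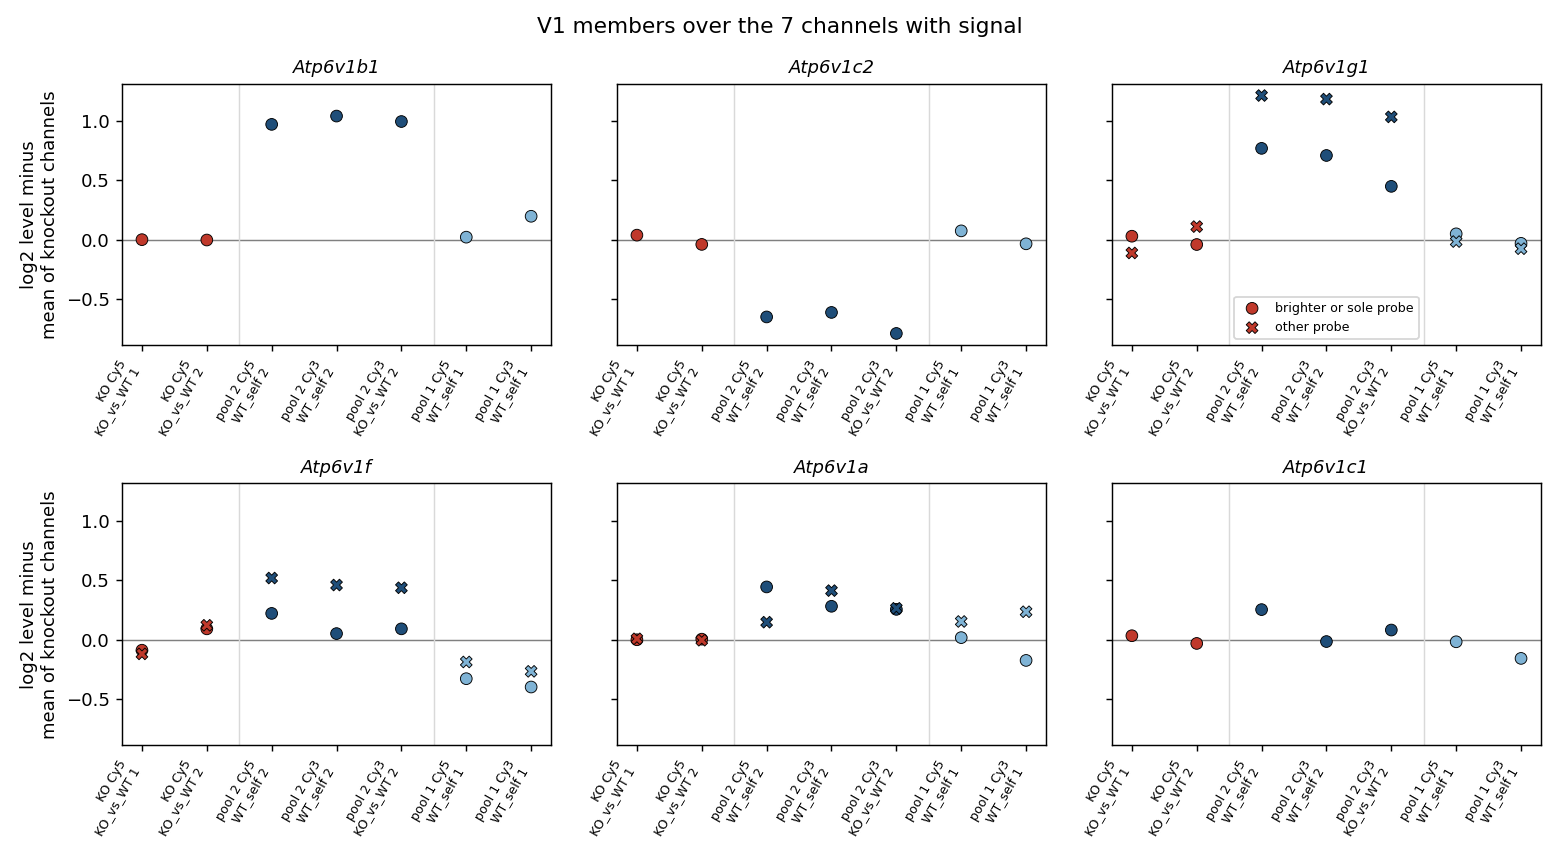
Log2 level of 6 V1 genes in each of 7 channels, minus the mean of the 2 knockout channels. Crosses are the dimmer probe of a gene with 2. The 3 channels of pool 2 (dark blue) lie above the rest for Atp6v1b1 and both Atp6v1g1 probes and below them for Atp6v1c2, while in these 3 genes the channels of pool 1 (light blue) lie near the knockout channels (red).

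Knockout and wild-type RNA were both measured on 1 array, KO_vs_WT replicate 2, which carried pool 2 in Cy3. There the log2 ratio of knockout over wild type, after loess normalization, was -1.14 for Atp6v1b1, 0.79 for Atp6v1c2 and -0.55 for Atp6v1g1. The other 7 ratios lay between -0.28 and 0.23, and 8 of 10 were negative, where 43.3% of all genes were. Differences of 1.5-fold or more were seen for 2 of 10 members, Atp6v1b1 and Atp6v1c2, where 11.3% of all genes showed one. The pool 2 self array, on which both dyes carry the same RNA, read -0.02 for Atp6v1b1, 0.00 for Atp6v1c2 and 0.00 for Atp6v1g1. The ratios of these 3 genes less their self ratios were -1.12, 0.79 and -0.55, with no replicate. With the array centred on its median in place of loess, the ratio of Atp6v1b1 was -0.76, that of Atp6v1c2 1.42 and that of Atp6v1g1 0.20. The sign turned there for Atp6v1g1 and 5 other members, so that the count of negative ratios rests on the centring. With the scanner software's processed ratio, Atp6v1b1 stood at -2.13, Atp6v1c2 at 1.07 and Atp6v1g1 at -0.60. Under each of these settings 3 of 10 members reached 1.5-fold, but the share of all genes was not counted there. With median centring the 3 were Atp6v1b1, Atp6v1c2 and Atp6v1d (0.996), and with the processed ratio Atp6v1b1, Atp6v1c2 and Atp6v1g1. The count is therefore not read as a trait of the members. These values are of the brighter or sole probe. The dimmer probe of Atp6v1g1 gave -0.97 after loess, beyond 1.5-fold. It gave -0.20 with median centring and -1.08 as the processed ratio, so its sign did not turn.

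On KO_vs_WT replicate 1, where Cy3 held no wild-type signal, the member ratios lay between -0.09 and 0.05 and were not read as differences between genotypes. The comparison of both KO_vs_WT arrays with both self arrays by log ratio takes this array as 1 of its 2 knockout arrays. It called 0 of 10 members, where it called 0% of 15914 genes (limma, lowest adjusted p 0.917, with 10 genes higher and 73 lower at an unadjusted p under 0.05). With an array of ratios near 0 on the knockout side, that count says nothing about the members. Without KO_vs_WT replicate 1, 6 of 10 members passed, where 32.4% of all genes did, with 1 array on the knockout side.

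Atp6ap2 itself, the targeted gene, had 8.08 and 7.72 in knockout cells and 8.37 and 8.51 in pools 1 and 2. The Cy5 channels whose source name is knockout were the lowest, with both below both pools, as in 17.3% of all genes. The knockout mean was below both pools, by a log2 difference of -0.48 from pool 1 and -0.61 from pool 2. The difference was -0.54 ± 0.17 (moderated SE, 2 arrays per group, limma adjusted p = 0.796). On KO_vs_WT replicate 2 the log2 ratio of Atp6ap2, knockout over pool 2, was -0.63 after loess and -0.09 with median centring. The processed ratio gave -1.03, so its size rests on the scaling. Whether its probe lies in the deleted part was not checked.

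Other genes of the pump also gave no call. Of 13 V0 and accessory genes 12 were tested and 0 passed, with a median of -0.05 over wild type, 0.06 over pool 1 and -0.05 over pool 2. Those with the smallest p after Atp6ap2 were Atp6v0c, which encodes the proton-carrying ring subunit, at 0.17 ± 0.11 (SE), Atp6v0e at 0.16 ± 0.15 and the accessory gene Atp6ap1 at 0.20 ± 0.20 (n = 2 arrays per group, limma adjusted p 0.796 to 0.815). Atp6v0a4, the V0 a form of intercalated cells, stood at 7.98 and 8.24 in knockout cells and at 7.65 and 9.05 in pools 1 and 2. At this brighter probe both knockout values lay between the pools. The dimmer probe gave 6.82 and 6.75 in knockout cells and 6.80 and 8.15 in pools 1 and 2, with pool 2 alone apart. Atp6v0a4 was added to these names after its values were seen.

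The other V1 isoforms were Atp6v1g3, a kidney G form, and Atp6v1g2, a brain G form, while Atp6v1e2 was not well above background on any of the 4 arrays. Atp6v1g3 stood at 8.86 and 9.08 in knockout cells and at 8.95 and 8.59 in pools 1 and 2. Like Atp6v1c2 it had its lowest value in pool 2. The difference was 0.19 ± 0.17 (moderated SE, 2 arrays per group, limma adjusted p = 0.808). Atp6v1g2 differed by -0.06 ± 0.11 (adjusted p = 0.882). Of 16 genes for assembly and regulation of the pump 10 were tested and 0 passed, with a median of -0.06. The named ones were Aldoc at 0.45, the transcription factor Mitf at -0.23, Rogdi, a pump assembly factor, at 0.17, and Ncoa7 at -0.31. The limma adjusted p was 0.849 for Ncoa7 and 0.796 for each of the others. Both knockout values of Ncoa7 (8.415 and 8.523) lay between those of pools 1 and 2 (8.15 and 9.414).

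Markers of other cell types moved with the pool 2 values. Proximal tubule markers (6 of 10 tested, none below background on all 4 arrays) had a summed Cy5 intensity of 3771 and 2246 in knockout cells and of 5522 and 41810 in wild-type pools 1 and 2. Their median log2 difference, knockout minus wild type, was -0.84 from pool 1 and -3.69 from pool 2. Slc34a1, the phosphate transporter of the proximal tubule, stood at 8.41 and 7.75 in knockout cells and at 9.11 and 12.29 in pools 1 and 2. Loop and distal tubule markers (5 of 6 tested, Pvalb not well above background on any array) summed to 5465 and 4071 in knockout cells. They summed to 7345 and 11360 in pools 1 and 2. Calb1, the brightest of them in knockout cells and pool 1, stood at 11.91 and 11.33 in knockout cells. It had 12.41 and 11.96 in pools 1 and 2, so it was lower in pool 2, while the other 4 were higher. The sort for EGFP, which the HoxB7 promoter drives, would remove cells of these tubule segments if it were complete. Markers of other lists were lower in pool 2 than in pool 1. The median log2 difference, pool 2 minus pool 1, was -0.85 for stroma (6 of 8 tested) and -0.92 for erythroid cells (3 of 5 tested). It was -0.33 for intercalated cell, -0.28 for principal cell, -0.23 for endothelium and -0.20 for leukocyte and osteoclast-like markers, but 0.14 for ureteric bud tip markers. Principal cell markers had a knockout median of 0.175 over pool 1 and 0.59 over pool 2. Ureteric bud tip markers (7 of 8 tested) had a median difference, knockout minus wild type, of -0.38 from pool 1 and -0.54 from pool 2. The part of other cells in the V1 values of pool 2 was not tested, nor was that of the low spike-in signal of the pool 2 channels. Fewer cells of a type and less RNA per cell cannot be told apart in such bulk samples.

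Intercalated cell markers, a list that also holds Atp6v1b1 and Atp6v1c2, were as a list not higher in pool 2. Of 19 tested, 0 passed, 11 were positive and 8 negative, and their median difference was 0.01 from wild type, -0.03 from pool 1 and 0.23 from pool 2. Pool 2 was above pool 1 in 4 of the 19, which were Atp6v1b1, Atp6v0a4, Car15 and Foxi1 (0.05). Those genes were named after their values were seen. The summed intensity of all 19 was 11720 and 12530 in knockout cells and 10390 and 8968 in pools 1 and 2. Without Rhcg, the brightest of them, the sum was 6445 and 6112 in knockout cells and 6597 and 6321 in pools 1 and 2, with no order by genotype or pool. Slc4a9, a bicarbonate transporter of base-secreting intercalated cells, had a log2 difference, knockout minus wild type, of -0.46 from pool 1 and 0.70 from pool 2. Kit had 8.40 and 8.35 in knockout cells and 8.47 and 7.67 in pools 1 and 2, an order like that of Atp6v1c2. Rhcg, an ammonia transporter, stood at 12.36 and 12.65 in knockout cells and at 11.89 and 11.37 in pools 1 and 2. The difference was 0.88 ± 0.22 (moderated SE, 2 arrays per group, limma adjusted p = 0.796).

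**Figure D4:**
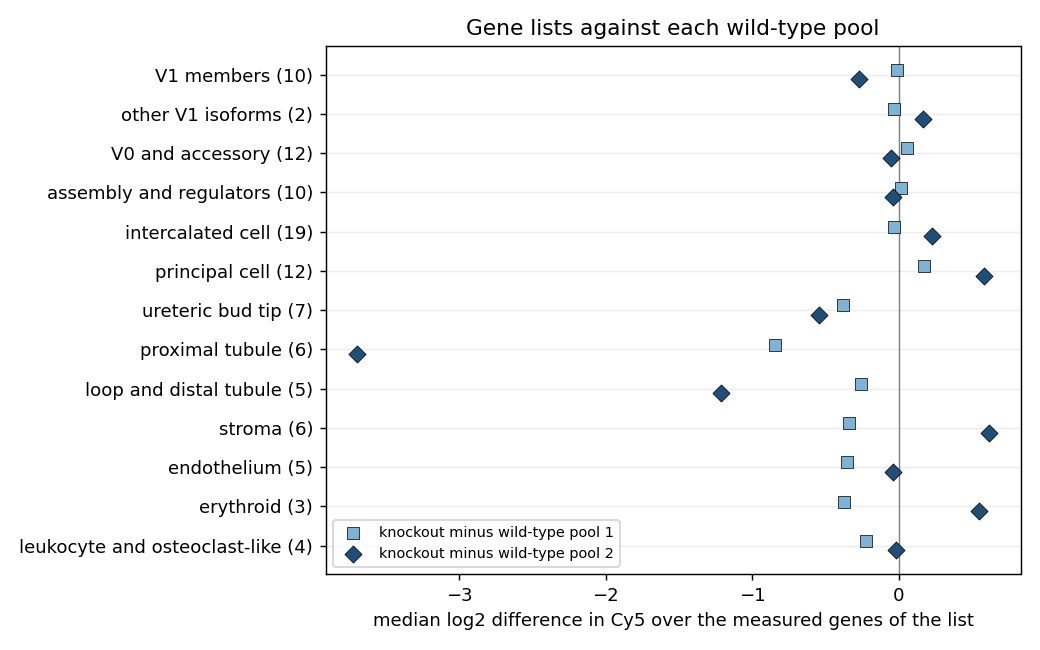
Median log2 difference in Cy5 of knockout from wild-type pool 1 (light squares) and pool 2 (dark diamonds) over the tested genes of each list, with their number in brackets. The V1 medians are -0.01 from pool 1 and -0.27 from pool 2, while proximal tubule markers lie at -0.84 and -3.69.

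Over the 7 channels, the genes whose level was most like that of Atp6v1b1, among 8250 genes well above background in all of them, were Xylb, Ehhadh, 2310039H08Rik, Pgam2 and Defb29 (Pearson's r 0.999 each). All 5 were higher in pool 2, by 0.71 to 1.85 on the log2 scale against pool 1. Ehhadh encodes a peroxisomal enzyme of fatty acid oxidation, and Xylb encodes xylulokinase. Of the V1 genes, Atp6v1g1 was most like Atp6v1b1 (r = 0.944), followed by Atp6v1a (0.857), and Atp6v1c2 ran opposite (-0.979). The channels hold knockout RNA and 2 wild-type pools, so the likeness rests on the gap of pool 2 from the rest and is only a description. The genes most like the mean of the ubiquitous members measured in all 7 channels were Ss18l2, Clic6, Clptm1, Emx1 and Ptk7 (r 0.992 to 0.998).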

How the data were processed

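The 4 two-colour arrays were scanned and their spots quantified in Agilent Feature Extraction 10.7.3.1, per the file headers. Intensity was deposited for each spot and dye as the pixel median, beside the local background and a processed intensity that the software had corrected for background and dye bias. A log10 ratio of the processed signals, Cy5 over Cy3, was deposited too, per the file headers, and the deposited series table repeats it in 45018 of 45018 spots on each array, within 1e-06. Deposited flags mark spots well above background or saturated.

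For the Cy5 comparison, intensities were background-corrected (normexp, offset 50) and quantile normalized across the 4 arrays. For the log-ratio comparison, the same correction was followed by loess within arrays, with control spots at weight 0. In the Cy5 comparison a probe was kept where both arrays of 1 genotype had it well above background in Cy5. In the log-ratio comparison it was kept where both KO_vs_WT arrays had it well above background in Cy5, or both in Cy3. A dark patch of 390 spots on WT_self replicate 1 was left out. The brightest probe stood for a gene. The tests were limma's (3.58.1, in R 4.3.3), two-sided, with p-values Benjamini-Hochberg adjusted over all genes. All 10 members are named, and of other lists up to 4 genes with the smallest unadjusted p, with some marker genes added after their values were seen. One gene chosen by that rule is not reported here. Same-numbered KO_vs_WT and WT_self arrays hold the same wild-type pool in Cy3, per the labels, but did not deviate together (r = 0.0385 in Cy5, -0.0864 in log ratios). The members and lists were chosen with earlier results of these data known. Of 41174 probes, 22951 matched a RefSeq symbol (GRCm38.p6). The scripts were tested on simulated data. Other backgrounds, scalings, filters and left-out arrays were tried.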

Additional observations from a re-analysis of the deposited data

Results flagged for a closer look

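Atp6v1c2 and Atp6v1f lay on opposite sides of the 2 wild-type pools. In Cy5, both knockout arrays were below pool 1 and above pool 2 for Atp6v1c2, with a log2 difference, knockout minus wild type, of -0.083 from pool 1 and 0.735 from pool 2. For Atp6v1f both were above pool 1 and below pool 2, with 0.326 from pool 1 and -0.222 from pool 2. The difference between the pools was not tested, since each has 1 Cy5 array.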

How the results depend on the processing

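Among the members' alternative values in the Cy5 comparison, 8 turned sign and 5 passed the threshold, and the others kept their direction and side of it. All genes called in Cy5 ranged over 0 to 4253 with 1 array left out (4253 without WT_self replicate 1, 1 without WT_self replicate 2, 0 without either KO_vs_WT array), and members called ranged over 0 to 5. In the log-ratio comparison all genes called ranged over 0 to 5102 (5102 without KO_vs_WT replicate 1, 7 without KO_vs_WT replicate 2) and members over 0 to 6. Such fits leave 1 array in a group. With 1 array left out, the Cy5 difference ranged from -1.22 to -0.03 for Atp6v1b1, -0.50 to -0.02 for Atp6v1a, -0.78 to -0.05 for Atp6v1g1, -0.316 to 0.0247 for Atp6v1c1, -0.0830 to 0.735 for Atp6v1c2, -0.222 to 0.326 for Atp6v1f and -0.104 to 0.109 for Atp6v1h. The log-ratio difference ranged from -1.049 to 0.0487 for Atp6v1b1, -0.0542 to 0.721 for Atp6v1c2 and -0.573 to 0.0248 for Atp6v1g1.

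The mean of all probes gave -0.057 for Atp6v1f, and keeping the dark patch gave -0.00040 for Atp6v1h. Scalings moved Cy5 differences by over 1.5 times too, the following among them. Processed signals gave -1.11 for Atp6v1b1, -0.55 for Atp6v1c1, -0.43 for Atp6v1b2, -0.07 for Atp6v1a, -0.24 for Atp6v1g1 and 0.15 for Atp6v1d. Centring on the 75th percentile gave -0.43 for Atp6v1b2, -0.12 for Atp6v1a, -0.22 for Atp6v1g1, 0.32 for Atp6v1d and 0.26 for Atp6v1e1. Centring log ratios on the median moved the median of all genes to 0.44, and the processed ratio moved it to 0.88. Median centring gave log-ratio differences of 0.26 for Atp6v1a, 0.16 for Atp6v1c1, 0.72 for Atp6v1e1, 2.21 for Atp6v1f and 1.60 for Atp6v1g1, and shared-array ratios of 0.34, 0.25, 0.42, 0.57 and 0.20 for the same genes and 0.45 for Atp6v1h. The processed ratio gave 1.09 for Atp6v1e1, 1.52 for Atp6v1f and 1.20 for Atp6v1g1. The signs turned in all of these, and the cause was not tested. The pool 2 minus pool 1 difference of Atp6v1d and Atp6v1e1 turned sign to -0.07 with 75th percentile centring, and kept its sign in the other 8 members under each scaling run.

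With the replicate block, 0 genes and 0 members were called in either comparison. Same-numbered arrays share the wild-type pool in Cy3, which is empty on KO_vs_WT replicate 1, and the Cy5 of knockout arrays shares no pool with them. The 2 arrays per group, and the low signal of Atp6v1b1 and Atp6v1b2 over background, limit the precision.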
